A study of Mus musculus and Homo sapiens with 20 samples.

Results

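A set of 10 genes that write or read 5-methylcytosine (m5C) on RNA were followed through every peak list of the series, by gene symbol. They were the NOP2/Sun methyltransferase genes Nsun2, Nop2, Nsun3, Nsun4, Nsun5, Nsun6 and Nsun7, the tRNA methyltransferase gene Trdmt1, and the m5C-binding protein genes Alyref and Ybx1. All 10 were found among 21938 mouse protein-coding genes (GENCODE, GRCm38/mm10), and all 10 human orthologues among 20033 human ones (GRCh38/hg38). CUT&Tag, in which an antibody guides a transposase that cuts and tags the DNA around a chromatin mark, had been run on 20 libraries in 10 groups of 2. H2AK119ub and H3K27me3 were each profiled in mouse embryonic stem (mES) cells, WT or Tet2 KO, and in HSPCs (blood stem and progenitor cells, taken as Lin-c-Kit+ cells of bone marrow), WT or Tet2 KO. The HSPC donors were 6 to 8 weeks old, wild-type C57BL/6 or Tet2-/- mice backcrossed to that strain, and the cells were enriched by magnetic sorting. The labels add that such cells were also cultured with cytokines, without saying whether those profiled were. The WT and Tet2-/- mES cells were both received from another laboratory, so genotype and line cannot be told apart. H2AK119ub alone was profiled in the established human leukaemia line K562. Its cells had been nucleofected with siControl or with siMBD6, which targets the methyl-CpG-binding-domain gene MBD6.

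RNA m5C is made by enzymes that differ in their substrates. The NSUN enzymes and TRDMT1 methylate ribosomal, transfer, mitochondrial or messenger RNA, while ALYREF and YBX1 bind methylated transcripts and act in their export and stability. H2AK119ub is placed by Polycomb repressive complex 1 and H3K27me3 by Polycomb repressive complex 2, and both marks are known from promoters of silenced developmental genes, many of them rich in CpG. The measurement asks how far both Polycomb marks reached the genes that write and read the RNA mark.

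For each gene and library, the percent of the promoter (from 1 kb before to 1 kb after the annotated start) and of the whole gene span that lay under peaks was computed. The lists held 85121 to 167378 peaks each, covering 132.1 to 259.9 Mb, and gave positions only, so read depth was unknown. The commonest peak width was 501 bp, and only 50 of the 2390277 peaks were narrower. A promoter coverage of 25.0% equals a lone peak of that width lying wholly inside. The lists cannot show transcript levels, so neither the loss of Tet2 nor the depletion of MBD6 nor the cell types could be checked by expression. Among 5 mES marker genes, 5 had an H2AK119ub promoter peak in every mES library and 2 in every HSPC library. Of 6 HSPC markers 5 had it in every HSPC library and 5 in every mES library, so the H2AK119ub counts of these HSPC markers do not tell the cell types apart. Of 5 K562 markers 3 had it in every K562 library and 2 in none. H3K27me3 lay at 4 of the 5 mES marker promoters in every HSPC library and at 1 in every mES library. For the 6 HSPC markers that mark was at 4 in every HSPC library and at 4 in every mES library. By H3K27me3 the counts thus differed for the mES markers only. Replicates of a group shared only 16 to 69 identical peaks, so within a group neither library was a copy of the other. Whether replicates were separate cultures or animals was not stated in the labels, and p-values measure the spread between these libraries only. With 2 libraries against 2, the exact two-sided permutation test has 6 assignments and cannot go below p = 0.333. Every adjusted p of a 2-against-2 promoter comparison was 1 by this exact permutation test with Benjamini-Hochberg adjustment over all genes. Genes are therefore described by whether the groups overlapped, beside the share of all genes whose groups did not.

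Promoter sequences show the DNA around the starts of these genes, whether or not a peak lay over it. Of the 10 mouse genes, 9 matched an entry in the RefSeq promoter table (GRCm38.p6, 250 bases before to 50 after the start), all but Nsun5. The 4 printed here are the extremes of the results: Nsun7, the promoter most covered by H3K27me3 in mES cells, Alyref, fully covered by H2AK119ub in HSPCs, the RefSeq start of Nsun2, and Trdmt1, nearly free of both marks. Each is read 5′ to 3′ on the gene's own strand, and capitals mark the CpG dinucleotides (the letters CG, which read the same on both strands).
Nsun7, chr5:66259648-66259947, plus strand: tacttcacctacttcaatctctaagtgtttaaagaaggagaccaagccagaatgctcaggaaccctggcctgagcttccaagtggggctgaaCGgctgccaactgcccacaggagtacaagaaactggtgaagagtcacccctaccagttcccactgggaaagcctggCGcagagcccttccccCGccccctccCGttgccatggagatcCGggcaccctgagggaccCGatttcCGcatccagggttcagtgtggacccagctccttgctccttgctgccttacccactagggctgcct
Alyref, chr11:120598316-120598615, minus strand: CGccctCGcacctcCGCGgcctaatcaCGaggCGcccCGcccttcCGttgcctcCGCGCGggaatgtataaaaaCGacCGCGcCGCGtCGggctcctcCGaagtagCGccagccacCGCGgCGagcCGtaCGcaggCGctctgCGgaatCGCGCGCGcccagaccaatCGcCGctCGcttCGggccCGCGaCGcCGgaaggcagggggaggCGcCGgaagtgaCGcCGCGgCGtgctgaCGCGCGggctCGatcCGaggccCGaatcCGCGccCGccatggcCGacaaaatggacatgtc
Nsun2, chr13:69611766-69612065, plus strand: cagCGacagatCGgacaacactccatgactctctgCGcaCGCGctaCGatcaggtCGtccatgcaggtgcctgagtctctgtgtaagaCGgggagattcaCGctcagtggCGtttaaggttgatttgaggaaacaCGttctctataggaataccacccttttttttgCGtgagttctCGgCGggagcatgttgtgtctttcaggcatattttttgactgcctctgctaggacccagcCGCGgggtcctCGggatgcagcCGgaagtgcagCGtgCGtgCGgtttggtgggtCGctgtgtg
Trdmt1, chr2:13544615-13544914, minus strand: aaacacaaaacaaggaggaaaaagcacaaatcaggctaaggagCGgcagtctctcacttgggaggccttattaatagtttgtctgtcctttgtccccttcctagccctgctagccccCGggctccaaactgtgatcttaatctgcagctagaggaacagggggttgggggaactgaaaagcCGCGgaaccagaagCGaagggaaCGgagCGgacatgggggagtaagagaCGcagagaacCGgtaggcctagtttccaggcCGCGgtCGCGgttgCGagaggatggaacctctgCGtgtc
The Alyref stretch held 54 CpGs, as many or more than which only 0.347% of the 32851 RefSeq promoters held. The Nsun2 stretch held 22 CpGs (23.1% of promoters held as many or more), the Trdmt1 stretch 15 (34.6%) and the Nsun7 stretch 7 (52.1%). Over the full promoters of 2001 bp at the GENCODE starts, the ratio of observed to expected CpGs was 1.05 for Nsun2, 1.01 for Alyref and 0.901 for Ybx1, against a median of 0.474 over all mouse promoters. The GENCODE start of Nsun2 lies beside that of Tent4a, 78.3 kb from the RefSeq start printed above, so its ratio describes another place. Nsun7 had the lowest ratio of the 10, at 0.409, and was the only one below the median. At GENCODE starts, the promoter with the most H3K27me3 in mES cells was thus the one with the lowest ratio among these genes. By count Trdmt1 held fewer CpGs in its 2001 bp, 54 against 56 for Nsun7.

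In mES cells H2AK119ub peaks were about as frequent at these promoters as at all promoters, and few of the 10 had H3K27me3. A promoter peak of H2AK119ub was present at 6 to 9 of the 10 genes per mES library, while 66.8% to 67.8% of all promoters had one. H3K27me3 peaks were present at only 1 to 3 of the 10, against 36.5% to 49.4% of all promoters. These counts are at GENCODE starts. At the RefSeq starts Nsun2 had H3K27me3 in every mES library and Ybx1 had neither mark there. In HSPCs the counts were 8 to 10 for H2AK119ub (all promoters, 63.0% to 70.9%) and 7 to 9 for H3K27me3 (all promoters, 58.4% to 61.6%). K562 had the fewest, with H2AK119ub at 1 or 2 of the 10 per library, against 33.8% to 42.0% of all promoters. The median coverage of the 10 promoters was 29.0% to 53.0% for H2AK119ub in mES libraries and 54.3% to 64.7% in HSPC libraries, where the medians of all promoters were 36.01% to 38.5% and 34.6% to 53.0%. For H3K27me3 the median of the 10 was 0% in each mES library and 28.2% to 33.1% in HSPC libraries, with all promoters at 0% and at 25.0% to 31.4%.

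**Figure D1:**
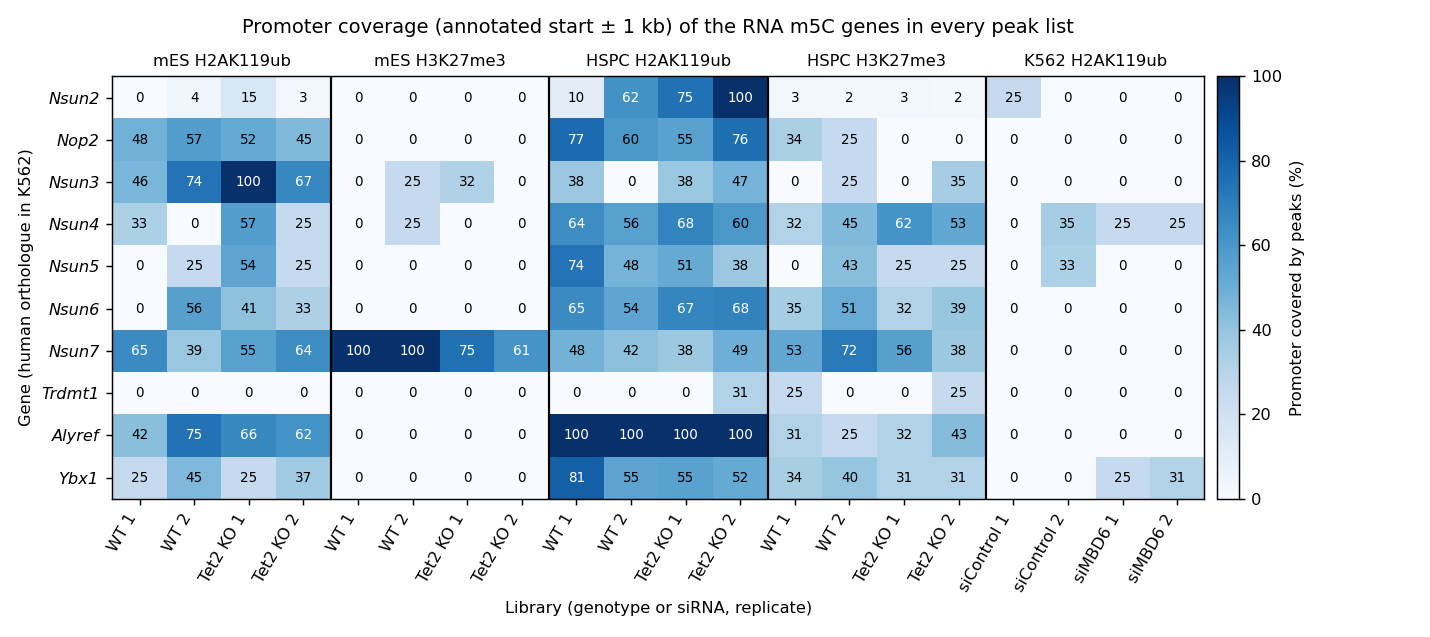
Percent of the promoter (annotated start ± 1 kb) covered by peaks for each of the 10 genes (vertical axis) in each of the 20 libraries (horizontal axis, grouped by cell type and mark), with the value written in each cell. The mES H3K27me3 block is at 0% except for Nsun7 and a few values of 25% to 32% at Nsun3 and Nsun4, and Alyref is at 100% in the 4 HSPC H2AK119ub libraries.

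Averaged over the 4 libraries of each cell type and mark, the order of the genes differed between the blocks. In mES H2AK119ub, Nsun3 was highest at 71.8% ± 22.2 (SD, n = 4), followed by Alyref at 61.2% ± 13.6, Nsun7 at 55.8% ± 12.3 and Nop2 at 50.4% ± 5.27. These 4 neighbours differed by less than the SD of the more variable of each pair. Ybx1 (33.0% ± 9.78), Nsun6 (32.4% ± 23.6), Nsun4 (28.7% ± 23.4) and Nsun5 (26.1% ± 22.2) followed, also within their spread, and Nsun2 (5.43% ± 6.82) and Trdmt1 (0%) were lowest. In HSPC H2AK119ub, Alyref stood at 100% without spread, above 93.1% of all promoters, and Nop2 came next at 67.0% ± 11.2. Nsun6 (63.5% ± 6.499), Nsun4 (61.8% ± 5.34), Nsun2 (61.8% ± 37.8) and Ybx1 (60.7% ± 13.8) lay within 3 points of each other, well inside their spread. Nsun5 (52.8% ± 15.3), Nsun7 (44.1% ± 5.52), Nsun3 (31.0% ± 21.1) and Trdmt1 (7.86% ± 15.7) completed the order. In HSPC H3K27me3 the order ran from Nsun7 at 54.6% ± 13.9 and Nsun4 at 47.6% ± 12.7 through Nsun6 (39.3% ± 8.46), Ybx1 (34.2% ± 3.97) and Alyref (32.9% ± 7.70) to Nsun5 (23.2% ± 17.5), Nsun3 (15.0% ± 17.8), Nop2 (14.7% ± 17.3), Trdmt1 (12.52% ± 14.5) and Nsun2 (2.19% ± 0.661). Each neighbouring pair in that order differed by less than the larger of its SDs.

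Nsun2 encodes the writer of m5C on tRNA and messenger RNA that the study links to chromatin-associated RNA, and its values depended on which annotation gave its start. GENCODE (ENSMUSG00000021595.18) places the gene at chromosome 13, 69533746 to 69635780, plus strand, with its start 871 bp from that of Tent4a. RefSeq places the start 78.3 kb further downstream, at 69612016, beside the start of Srd5a1, 575 bp away on the other strand when both end bases are counted. At the GENCODE start, H2AK119ub covered 0% and 3.75% of the promoter in WT and 15.4% and 2.60% in KO mES libraries, and 10.2% and 62.2% in WT, against 74.7% and 100% in KO HSPC libraries. The HSPC groups did not overlap there, with a mean of 36.2% ± 36.7 in WT and 87.4% ± 17.9 in KO (SD, n = 2 each; exact permutation p = 0.333). At the RefSeq start the same comparison gave 79.4% and 76.2% in WT against 65.7% and 84.3% in KO, and those groups overlapped. The separation at the GENCODE start thus concerned the region beside Tent4a and was not seen at the RefSeq promoter.

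At the RefSeq start of Nsun2 both marks were present in every mouse library. In mES cells H2AK119ub covered 45.3% and 51.1% in WT, against 50.0% and 48.5% in KO, and H3K27me3 covered 43.3% and 43.8% in WT, against 48.4% and 46.2% in KO. The H3K27me3 groups did not overlap, and KO was the higher. The peaks of mES cells lay upstream and ended at or close to the start, over the stretch shared with Srd5a1, a steroid reductase gene. Of the 575 bp from one start to the other, 76.5% to 100% was covered in the mES libraries and 100% in each HSPC library. H3K27me3 there in HSPCs reached 72.4% and 86.5% in WT, against 63.6% and 77.5% in KO. The body of the gene as RefSeq draws it (23765 bp) was almost free of peaks in mES cells, at 0% to 0.0968% for H2AK119ub.
In HSPCs the RefSeq span carried H2AK119ub over 11.8% and 11.98% in WT, against 7.10% and 4.99% in KO. These groups did not overlap, and KO was the lower. Over the 102035 bp of the GENCODE span the direction was the opposite, 14.1% and 15.7% in WT against 17.1% and 19.0% in KO. H3K27me3 also separated over the GENCODE span, where it covered 15.7% and 15.8% in WT HSPCs and 6.44% and 6.07% in KO, a gap of 9.30 points between the closest libraries. The RefSeq span held 1.89% and 3.07% in WT, against 1.15% and 2.32% in KO. Nearly all H3K27me3 of the GENCODE span lay upstream of the RefSeq start, 15.6 and 15.4 kb in WT and 6.30 and 5.64 kb in KO.

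**Figure D2:**
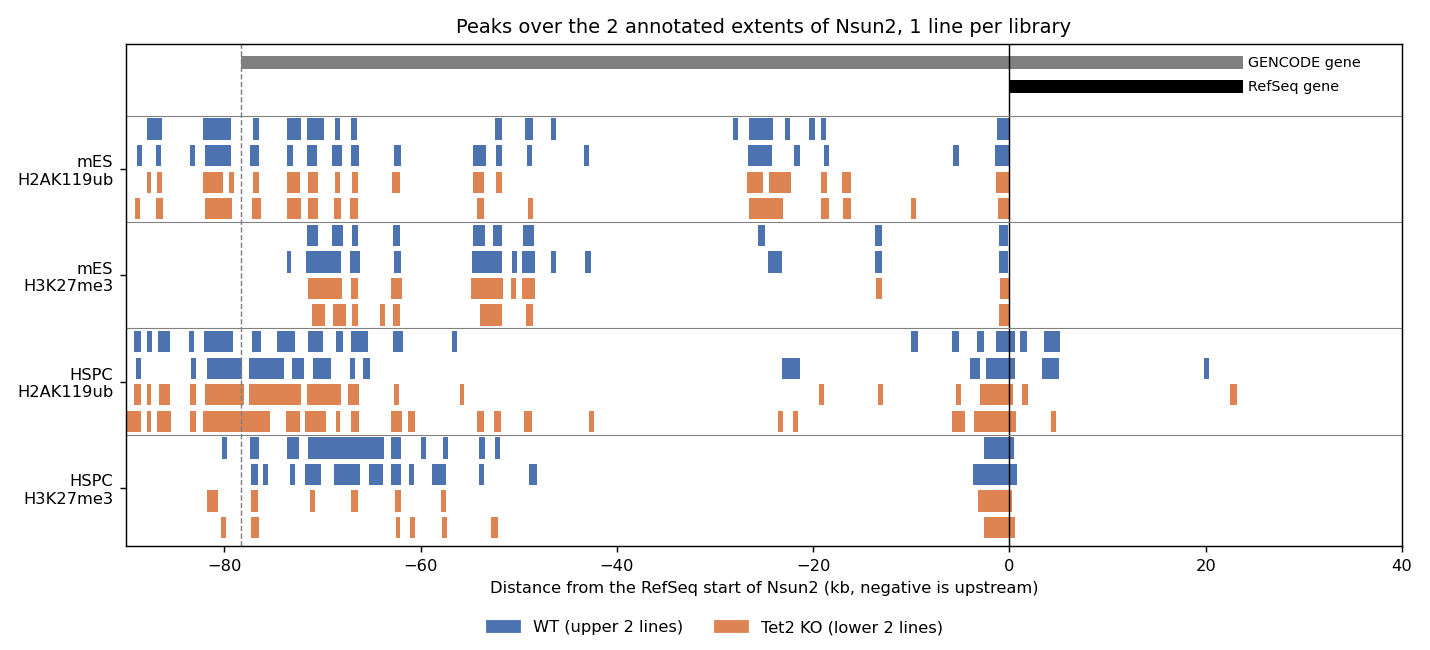
Peaks of the 16 mouse libraries (1 line each, WT above KO in every block) against the distance in kb from the RefSeq start of Nsun2, with the GENCODE and RefSeq extents drawn above. In HSPCs the H3K27me3 peaks of the distal upstream stretch cover fewer bases in KO than in WT, and the RefSeq gene body is nearly empty in mES cells.

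Nop2 and Nsun5 encode writers of m5C on the large ribosomal RNA. Nop2 (ENSMUSG00000038279.10, chromosome 6, 125131909 to 125144753) carried H2AK119ub over its start in all 8 mouse libraries of that mark, at 48.2% and 57.0% in WT, against 51.8% and 44.6% in KO mES cells and at 77.1% and 59.6% in WT, against 55.2% and 76.1% in KO HSPCs. Neither pair of groups separated. H3K27me3 was absent from the promoter in all 4 mES libraries, where the nearest peak was 33.6 to 81.8 kb away. In HSPCs it covered 33.7% and 25.0% in WT and 0% in both KO libraries, a difference of -29.4 points with groups that did not overlap. The 2 WT peaks were 674 and 501 bp wide, the second of them of the commonest width. In the 1 Mb on each side of Nop2, the H2AK119ub coverage was 35.5% and 34.8% in WT, against 26.1% and 23.7% in KO mES cells, while its own promoter did not separate. The part of that regional difference in the gene's values was not tested.
Nsun5 (ENSMUSG00000000916.15, chromosome 5, 135369953 to 135376805) had H2AK119ub at 0% and 25.0% in WT, against 54.2% and 25.0% in KO mES cells, and at 74.1% and 47.6% in WT, against 51.5% and 38.0% in KO HSPCs. Both comparisons overlapped. The short gene was mostly covered in HSPCs, 58.3% and 62.3% of its span in WT and 53.1% and 54.2% in KO, and these groups did not overlap. In mES cells 0% to 23.8% of the span was covered.

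Nsun3 and Nsun4 encode mitochondrial writers, acting on a mitochondrial tRNA and on mitochondrial ribosomal RNA. Nsun3 (ENSMUSG00000050312.12, chromosome 16, 62732444 to 62786818) carried H2AK119ub at 46.4% and 74.2% in WT, against 100% and 66.6% in KO mES cells, and at 38.0% and 0% in WT, against 38.5% and 47.3% in KO HSPCs. Only the HSPC groups did not overlap, and the closest libraries there lay 0.450 points apart. H3K27me3 was present in 2 of 4 libraries of each cell type, at 0% and 25.0% in WT, against 31.9% and 0% in KO mES cells and at 0% and 25.0% in WT, against 0% and 34.9% in KO HSPCs.
Nsun3 sat in a region poor in both marks, with 0.0658% to 3.46% of the 1 Mb on each side covered. Nsun4 (ENSMUSG00000028706.14, chromosome 4, 116032842 to 116053876) carried H2AK119ub at 33.0% and 0% in WT, against 56.8% and 25.0% in KO mES cells, and at 64.4% and 55.6% in WT, against 67.8% and 59.7% in KO HSPCs. Its H3K27me3 promoter coverage in HSPCs was 31.6% and 44.7% in WT, against 61.5% and 52.6% in KO, with groups that did not overlap and a difference of 18.9 points. The H2AK119ub of Nsun4 lay downstream of the start in HSPCs, where the first kb of the gene was covered over 100% in all 4 libraries and the kb before it over 11.1% to 35.5%.

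Nsun6 encodes a writer for tRNA and messenger RNA, and Trdmt1 a tRNA writer related in sequence to the DNA methyltransferases. Nsun6 (ENSMUSG00000026707.15, chromosome 2, 14995131 to 15055069) had H2AK119ub at 0% and 55.9% in WT, against 41.1% and 32.7% in KO mES cells, and at 65.1% and 54.0% in WT, against 67.0% and 68.1% in KO HSPCs. The HSPC groups did not overlap, with 1.85 points between the closest libraries. Its H3K27me3 was 0% in all 4 mES libraries and 35.2% and 51.0% in WT, against 31.5% and 39.3% in KO HSPCs. Trdmt1 (ENSMUSG00000026723.10, chromosome 2, 13509014 to 13544668) had no promoter peak in any of the 8 mES libraries. In HSPCs it had H2AK119ub in KO replicate 2 alone, at 31.4%, and H3K27me3 at 25.0% in WT replicate 1 and KO replicate 2. Its promoter thus had 3 peaks over 16 libraries, 501 to 629 bp wide. Both genes lay in regions of low coverage, where at most 2.84% of the 1 Mb on each side was under peaks of either mark.

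Nsun7, a member of the family known from sperm motility, had the most H3K27me3 of the 10 in mES cells. The gene (ENSMUSG00000029206.13, chromosome 5, 66259897 to 66298026) was covered at its promoter in all 16 mouse libraries, and at GENCODE starts no other of the 10 had H3K27me3 in every mES library (Nsun2 had it at its RefSeq start). The mES H3K27me3 values were 100% in both WT libraries and 75.0% and 61.2% in KO, with groups that did not overlap and a difference of -31.9 points. KO replicate 1 had a further peak of 501 bp upstream of the promoter window, and with peaks within 1 kb joined the groups overlapped, at -19.4 points. In the peaks as deposited the difference lay on the upstream side. The kb before the start was covered over 100% in both WT libraries and over 50.0% and 22.4% in KO, while the first kb of the gene stayed at 100% in all 4. The peak over the start was 4333 and 4181 bp wide in WT and 2919 and 2222 bp in KO. H2AK119ub at the promoter was 64.9% and 38.5% in WT, against 55.4% and 64.2% in KO mES cells, so that the groups overlapped.
In HSPCs Nsun7 had H2AK119ub at 47.9% and 41.7% in WT, against 37.5% and 49.4% in KO, and H3K27me3 at 52.8% and 71.8% in WT, against 56.0% and 37.8% in KO. Neither comparison separated at the promoter. Over the whole gene, H2AK119ub covered 4.65% and 6.13% in WT, against 1.51% and 2.16% in KO HSPCs, and 9.64% and 7.56% in WT, against 10.0% and 10.4% in KO mES cells. These span groups did not overlap in either cell type, and KO was the lower in HSPCs and the higher in mES cells. H3K27me3 over the span of mES cells was 11.9% and 17.7% in WT, against 10.7% and 7.87% in KO, again without overlap.

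Alyref and Ybx1 encode the readers, an mRNA export adaptor and a cold-shock-domain protein that binds and stabilises m5C-bearing transcripts. Alyref (ENSMUSG00000025134.2, chromosome 11, 120592121 to 120598365) starts 56 bp from Anapc11, a subunit gene of the anaphase-promoting complex on the other strand, so both share their promoter values. H2AK119ub covered 42.5% and 74.5% in WT, against 66.0% and 61.8% in KO mES cells and 100% in all 4 HSPC libraries. In mES cells the peaks mostly flanked the start, and the start base itself lay under a peak in 1 of 4 libraries, while all 4 had coverage on both sides. Over all promoters with an H2AK119ub peak, the start base was covered in 80.6% to 82.8% per mES library. In HSPCs a peak of 3470 to 7135 bp ran across the start.
H3K27me3 was absent from the Alyref promoter in mES cells, where the nearest peak was 42.3 to 45.1 kb away. In HSPCs it covered 31.4% and 25.0% in WT, against 31.5% and 43.5% in KO. These groups did not overlap, but the closest libraries were only 0.09995 points apart. Ybx1 (ENSMUSG00000028639.14, chromosome 4, 119277981 to 119294604) had H2AK119ub at 25.0% and 45.1% in WT, against 25.0% and 36.6% in KO mES cells, and at 81.3% and 54.6% in WT, against 55.2% and 51.7% in KO HSPCs. Its H3K27me3 was 0% in all mES libraries and 34.3% and 39.7% in WT and 31.3% in both KO HSPC libraries, a difference of -5.72 points without overlap. The RefSeq start of Ybx1 lies 1.66 kb upstream, and at that start H3K27me3 was 0% in all 8 libraries and H2AK119ub was 0% in mES cells and 25.0% to 62.9% in HSPCs.

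**Figure D3:**
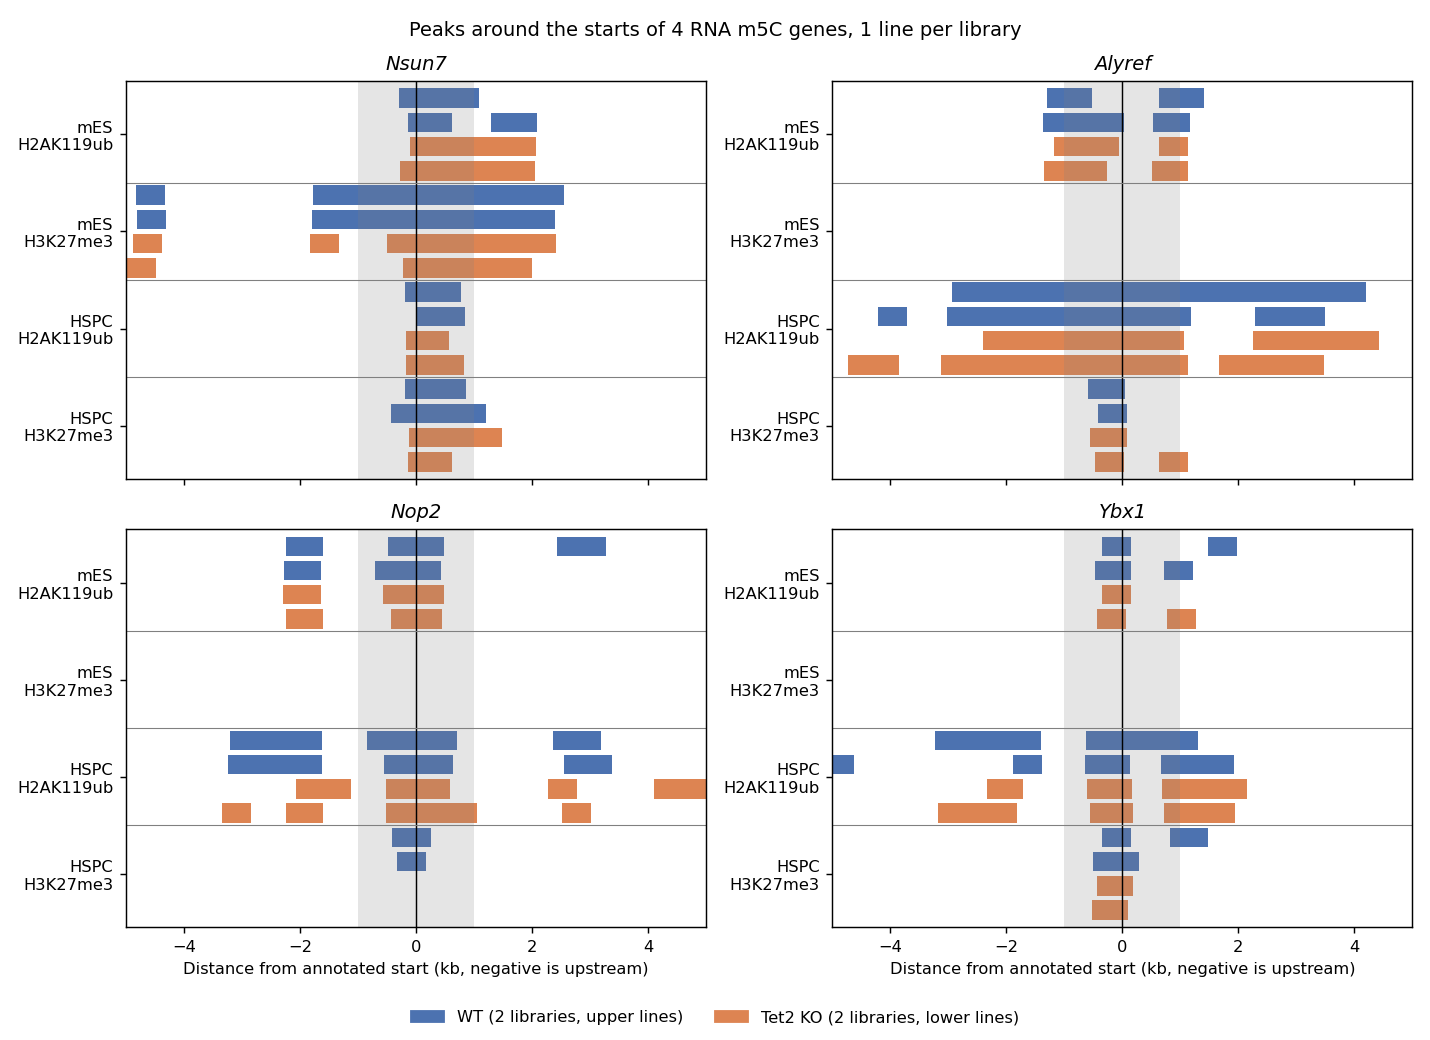
Peaks within 5 kb of the annotated starts of Nsun7, Alyref, Nop2 and Ybx1 in the 16 mouse libraries (1 line each, distance in kb on the horizontal axis, grey band for the promoter window of 1 kb on each side). The H3K27me3 peak of Nsun7 ends nearer to the start on its upstream side in the 2 KO mES libraries than in WT, and the H2AK119ub peaks of Alyref flank the start in 3 of 4 mES libraries and cross it in the 4 HSPC libraries.

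Taking the knockout comparisons gene by gene asks whether loss of Tet2 moved either mark at the genes of the pathway. For H2AK119ub in mES cells, the groups overlapped at all 10 promoters, while they separated upward at 10.2% and downward at 8.91% of all promoters. Of the 10 gene spans 4 separated (Nsun3 and Nsun7 higher, Alyref and Ybx1 lower in KO), against 30.2% of all spans in either direction. With peaks within 1 kb joined, Alyref turned to 2.62 points and both lower calls were lost, and Ybx1 also overlapped with RefSeq records. For H3K27me3 in mES cells, 0 of the 10 promoters were higher in KO (1.9% of all) and 1, Nsun7, was lower (16% of all). With RefSeq starts 2 separated, since Nsun2 was then higher in KO. Among spans, Nsun3 was higher and Nsun7 lower, 2 of 10 against 26.9% of all. At 7 of the 10 promoters every mES H3K27me3 library was at 0%, so these could not be lower in KO.

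In HSPCs 3 promoters separated for H2AK119ub and 4 for H3K27me3. For H2AK119ub 3 of the 10 were higher in KO (Nsun2 at its GENCODE start, Nsun3 and Nsun6) and 0 lower, where 18.8% of all promoters were higher and 5.05% lower. Nsun2 overlapped with peaks within 1 kb joined (44.9 points), and Nsun3 fell to 0 with peaks of at least 1 kb only. Spans separated at 6 of 10 (Nsun2, Nsun4, Nsun6 and Ybx1 higher, Nsun5 and Nsun7 lower), against 28.4% of all spans. The closest Nsun4 libraries were only 0.0713 points apart. These lists differed in length, with 133202 and 112734 peaks in WT against 129892 and 136735 in KO. With lists of equal length the span groups of Nsun2 (1.65 points) and Nsun4 (0.680 points) overlapped. With RefSeq records Nsun2 was instead lower in KO (-5.84 points, groups apart) and Ybx1 overlapped (-0.634 points), and with peaks of at least 1 kb 1 of the 10 spans separated. For H3K27me3 2 promoters were higher (Nsun4 and Alyref, 9.68% of all) and 2 lower (Nop2 and Ybx1, 8.79% of all). Among spans 5 of 10 separated, Nsun4 higher and Nsun2, Nop2, Nsun6 and Ybx1 lower, against 33.3% of all. With RefSeq records Nsun2 overlapped (-0.745 points), and with peaks of at least 1 kb only so did Nop2, Nsun6 and Ybx1. The median promoter difference of the 10 genes was 7.60 points for mES H2AK119ub, 0 for mES H3K27me3, 1.87 for HSPC H2AK119ub and -0.0875 for HSPC H3K27me3, and the median over all promoters was 0 in each.

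Pooling the KO effect over cell types and marks, with libraries permuted within each, called no gene of the 10. For H2AK119ub, H3K27me3 and both marks together, 0 of 10 promoters and 0 of 10 spans passed an adjusted p of 0.05 in the exact permutation test, and 0% of all genes did. None of the 10 had an unadjusted p under 0.05 either, while over both marks 325 of all promoters were higher and 437 lower at that level. The smallest unadjusted p was 0.0833, for the Nop2 promoter over both marks, where the mean difference was -9.11 points and the exact permutation test could have reached p = 0.00154. For 1 mark alone 36 arrangements allow no p below 0.0556, and the largest pooled promoter differences were 29.1 points for Nsun2 in H2AK119ub and -23.6 points for Nsun7 in H3K27me3 (exact permutation p = 0.111 for both). The Nsun2 value belongs to the GENCODE start beside Tent4a, and at the RefSeq start its HSPC part was -2.82 points.

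**Figure D4:**
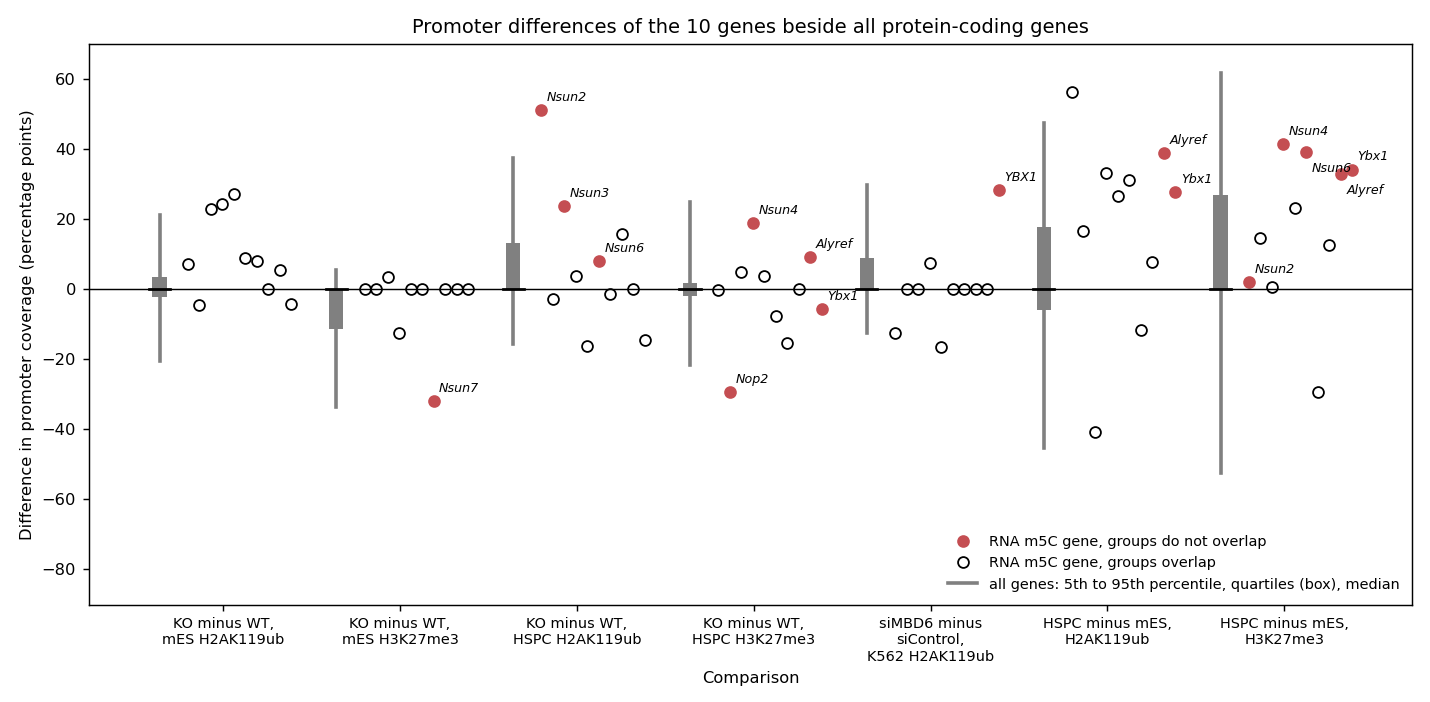
Difference in promoter coverage in percentage points for the 10 genes (circles, filled red where the groups do not overlap) in 7 comparisons, beside the 5th to 95th percentile, quartiles and median of all protein-coding genes (grey). Red points are few in the knockout comparisons, none for mES H2AK119ub and 4 for HSPC H3K27me3, and the HSPC minus mES differences of H3K27me3 include 5 red points, all above 0.

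The next comparison was between the cell types, which differ in tissue and in culture as well. With 4 libraries of each, both genotypes together, the exact permutation test over 70 assignments can reach p = 0.0286, and a gene whose groups do not overlap has that value. H2AK119ub was higher in HSPCs at 2 of the 10 promoters, Alyref by 38.8 points and Ybx1 by 27.7 points (exact permutation p = 0.0286, adjusted p = 0.118 for both), and lower at 0. Over all promoters 15.6% were higher and 8.58% lower. H3K27me3 was higher at 5 promoters and lower at 0, against 22.8% and 8.7% of all promoters. These were Nsun4 by 41.3 points, Nsun6 by 39.3, Ybx1 by 34.2, Alyref by 32.9 and Nsun2, at its GENCODE start, by 2.19 (exact permutation p = 0.0286, adjusted p = 0.0907 for each). No adjusted p passed 0.05. Alyref and Ybx1 separated for both marks, Ybx1 at its GENCODE start, since H3K27me3 was 0% at its RefSeq start. At the RefSeq start of Nsun2 the cell types also separated for both marks. H2AK119ub there was 45.3% to 51.1% in mES libraries and 65.7% to 84.3% in HSPC libraries. H3K27me3 there was 43.3% to 48.4% in mES libraries and 63.6% to 86.5% in HSPC libraries. At Nsun4 and Nsun6 the H2AK119ub differences were 33.1 and 31.1 points with groups that overlapped (exact permutation p = 0.0571, adjusted p = 0.197 for both). The H2AK119ub count of 2 became 4 with all transcript starts or with lists of equal length, 6 within genotype and 7 with 2 kb on each side, and Alyref overlapped with peaks within 1 kb joined (14.4 points). With peaks of at least 1 kb the H3K27me3 count of 5 became 0. Nsun7 pointed the other way for H3K27me3, with 61.2% to 100% across mES libraries against 37.8% to 71.8% across HSPC ones, but the groups overlapped.

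Across gene spans the cell types separated at 7 of 10 genes for H2AK119ub, against 41.5% of all spans. The highest differences were 43.1 points for Nsun5, 42.3 for Alyref and 35.0 for Nop2, followed by Nsun4 at 12.54, Ybx1 at 5.58 and Nsun2 at 3.60, and Nsun7 was lower in HSPCs by -5.79 points. The 3 genes most covered in HSPCs, Nsun5, Alyref and Nop2, are also the 3 shortest, at 6853, 6245 and 12845 bp. For Nop2 the span coverage was 56.5%, 51.4%, 55.1% and 43.2% in the 4 HSPC libraries and 27.1%, 7.99%, 16.2% and 15.0% in the 4 mES libraries. For H3K27me3 5 of 10 spans separated, against 44.4% of all, with Nsun7 lower in HSPCs by -9.34 points and Nsun4, Nsun6, Alyref and Ybx1 higher by 0.343 to 3.52 points. The smallest adjusted p of these span tests was 0.0643 (exact permutation test).

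Set side by side in the same cells, the marks separated at 4 of the 10 promoters in mES cells and at 5 in HSPCs. In mES cells these were Alyref by 61.2 points, Nsun3 by 57.6, Nop2 by 50.4 and Ybx1 by 33.0, all with more H2AK119ub, against 32.1% of all promoters in either direction. In HSPCs they separated at 5, Alyref by 67.1 points, Nsun2 at its GENCODE start by 59.6, Nop2 by 52.3, Ybx1 by 26.5 and Nsun6 by 24.3, again with more H2AK119ub, against 34% of all. Nsun7 had the opposite sign, at -28.3 points in mES cells and -10.5 in HSPCs, as had Trdmt1 in HSPCs at -4.66, each with groups that overlapped. With RefSeq starts Nsun2 overlapped in HSPCs (1.39 points) and Ybx1 was at 0 in mES cells, and with peaks of at least 1 kb 0 of the 10 separated in mES cells. Antibody and mark change together here, so the efficiency of the antibodies and the extent of the marks cannot be told apart.

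In K562, H2AK119ub was called at few of the human promoters. NOP2, NSUN3, NSUN6, NSUN7, TRDMT1 and ALYREF were at 0% in all 4 libraries. NSUN2 was at 25.0% in siControl replicate 1 and at 0% in the other 3, and NSUN5 at 32.8% in siControl replicate 2 alone. NSUN4 was at 0% and 35.1% in siControl and at 25.0% in both siMBD6 libraries. YBX1 was at 0% in both siControl and at 25.0% and 31.4% in siMBD6 libraries, the only one of the 10 whose groups did not overlap. That is 1 of 10 higher after siMBD6, where 13.4% of all human promoters were higher, and 0 lower, where 2.2% were lower (exact permutation p = 0.333 for YBX1). The siMBD6 lists were the longer, with 107166 and 110860 peaks against 91721 and 91776, and YBX1 overlapped with lists of equal length (15.7 points) and with peaks of at least 1 kb (0 points). Over gene spans 1 of 10 separated, YBX1 with 0.150% and 0.776% in siMBD6 against 0% in siControl, while 35.9% of all spans did. NSUN5 was the most covered gene, with span coverage of 9.94% and 7.99% under siControl and of 17.2% and 7.94% under siMBD6. The promoters of ALYREF and YBX1 had observed to expected CpG ratios of 0.927 and 0.959, both above the median of 0.613 over all human promoters, and ALYREF had no promoter peak. Of the 10 human promoters only that of TRDMT1 (0.511) lay below this median.

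A further 13 mouse genes tied to RNA m5C, among them the TET oxidases, other readers and the proteins MBD5 and MBD6, were read in the same way. Their H2AK119ub promoter peaks numbered 7 to 9 of 13 in mES and 10 to 13 in HSPC libraries, and their H3K27me3 peaks 2 to 4 and 6 to 9. In mES H3K27me3, Tet3 and Ybx2 were at 100% in all 4 libraries, as Nsun7 was in both WT libraries. After loss of Tet2, H2AK119ub in HSPCs separated at 5 of the 13 upward and 1 downward (all promoters, 18.8% and 5.05%), with Tet2 itself higher by 48.2 points, Ybx2 by 43.5 and Alyref2 lower by -37.4. Tet2 is the gene knocked out in these mice, and the part of its altered locus in the Tet2 value was not tested. For H3K27me3 in HSPCs 1 was higher, Fmr1 by 83.2 points, and 1 lower, Mbd5 by -16.0 (all promoters, 9.68% and 8.79%). Fmr1 lies on the X chromosome, the study used mice of both sexes, and the donor sex of each library was not known here. The part of donor sex in the Fmr1 value was not tested. In mES cells 1 promoter separated for H2AK119ub, Alyref2 by -20.1 points, and 0 for H3K27me3 (all promoters, 10.2% higher and 8.91% lower for the first mark, 1.9% and 16% for the second). Between cell types H3K27me3 was higher in HSPCs at 4 of the 13, led by Mbd6 (77.6 points) and Srsf2 (72.5 points), and lower at 1, Tet3 (-91.2 points), against 22.8% and 8.7% of all promoters. The 12 writers of other RNA methyl marks, such as the m6A genes Mettl3 and Mettl14, separated at 3 promoters for mES H2AK119ub, 1 for mES H3K27me3, 2 for HSPC H2AK119ub and 1 for HSPC H3K27me3 after loss of Tet2, and 8 of the 12 were higher in HSPCs than mES cells for H3K27me3, beside the same shares of all promoters.

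Across the 16 mouse libraries, the promoters most like that of Alyref were Anapc11, which shares it, Hist2h4, a histone gene, and Grhpr, with root-mean-square differences of 0.700, 5.39 and 6.87 points. For the GENCODE start of Nsun2 they were Tsc22d2, Jade2 and Phkg2, at 10.6, 10.8 and 12.2 points. This likeness is a description over libraries that share cell types, marks and list lengths.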

How the data were processed

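CUT&Tag peak lists of 20 libraries were taken as deposited. By their methods and the labels, the authors used Trimmomatic 0.39 for trimming, aligned reads (Bowtie2 2.4.1) to mm10 or hg38 with Drosophila spike-in DNA, and called peaks. The methods name MACS2 in broad mode and the submitters' processing notes HOMER 4.9, and which wrote these lists is not given in the sources used here. The deposited files hold a chromosome, start and end per peak, with no score or count from the authors, and carry no spike-in scaling. The study kept peaks seen in several replicates for later steps; here each library has its own list. A caller given more reads reaches weaker and wider regions, so coverage can move with depth, which is unknown here.

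Bases under peaks were counted in promoters (start ± 1 kb) and gene spans of GENCODE M21 and v44 protein-coding genes with Python 3.11.15 and numpy 2.4.6. All 2388984 peaks on assembled chromosomes lay within the reference chromosomes of the builds used. A gene was called when its groups did not overlap. Two-sided exact permutation tests were adjusted by Benjamini-Hochberg over all genes. Pooled effects permuted libraries within cell type and mark. Coverage was checked against bedtools 2.31.1 and the tests on simulated data. Coordinates are 1-based. The 10 genes and the comparison lists were chosen with earlier results of these data known. All 10 were named in every comparison, of the other lists at most the 3 separated genes with the largest difference, plus, for Nsun2 and the genes of widest range, the 3 with the nearest promoter profile. Alternatives covered peak width, joining of peaks, promoter width, other starts, equal list lengths, a gap of 10 points, each replicate left out, a replicate block and, chosen after seeing the data, RefSeq gene records. The promoters most like that of Nsun3 and the markers of other blood cells are not reported here.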

Additional observations from a re-analysis of the deposited data

Results flagged for a closer look

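A set of 6 results moved in opposite directions after loss of Tet2 in 2 cell types or for 2 marks, each over gene spans, with every KO library on one side of every WT library and the reverse in the other setting. Groups chosen for this separation fix the outcome of a permutation of the libraries, so the differences between the effects are a description and were not tested. Single comparisons after loss of Tet2 each separated 26.9% to 33.3% of all spans. The share of all genes that separated in opposite directions is not given here.

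For Nsun7 the H2AK119ub effect was 1.60 points in mES cells and -3.56 in HSPCs, a difference of -5.16 points. For Ybx1 it was -1.77 and 1.19 points, a difference of 2.96. With RefSeq records the Ybx1 effects were -1.65 and -0.634 points, both with groups that overlapped, so the opposite directions of Ybx1 between cell types, and between marks in HSPCs, were not seen there. Within mES cells, Nsun7 differed between the marks by 7.11 points, with 1.60 for H2AK119ub and -5.51 for H3K27me3. Within HSPCs the H2AK119ub effect minus the H3K27me3 effect was 12.6 points for Nsun2, 1.98 for Nsun6 and 3.61 for Ybx1. The Nsun2 effects, 3.13 points for H2AK119ub and -9.51 for H3K27me3, come from the GENCODE span, most of whose peaks lie upstream of the RefSeq start, and with RefSeq records were -5.84 and -0.745. The Nsun6 effects were 1.61 and -0.365 points, and those of Ybx1 1.19 and -2.43. What sets these pairs apart was not tested. With peaks of at least 1 kb only, the HSPC H2AK119ub span groups of Nsun2, Nsun6, Nsun7 and Ybx1 overlapped. The opposite separations that rest on them were then lost. With lists of equal length the HSPC H2AK119ub span groups of Nsun2 also overlapped (1.65 points).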

How the results depend on the processing

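Counts below are of the 10 genes whose groups did not overlap, promoter then span. The share of all genes was not computed under these alternatives, so the counts cannot be set beside it. Leaving out 1 library, which makes separation easier by construction, gave 1 to 6 (0 with all libraries) and 4 to 9 (4) for mES H2AK119ub after loss of Tet2, 1 to 2 (1) and 2 to 4 (2) for mES H3K27me3, 4 to 7 (3) and 7 to 9 (6) for HSPC H2AK119ub, 5 to 7 (4) and 5 to 9 (5) for HSPC H3K27me3, and 1 to 3 (1) and 2 to 4 (1) for K562. For HSPC against mES it gave 2 to 5 (2) and 7 to 8 (7) for H2AK119ub and 5 to 6 (5) for both measures of H3K27me3. For mark against mark it gave 4 to 7 (4) and 3 to 5 (3) in mES cells and 5 to 6 (5) for both measures in HSPCs. The pooled tests called 0 throughout. For 1 mark alone that outcome was fixed in advance, since the exact permutation test allows no p below 0.0556 there.

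With peaks of at least 1 kb only, spans fell to 2 for mES H2AK119ub, 1 for mES H3K27me3, 1 for HSPC H2AK119ub, 2 for HSPC H3K27me3 and 0 for K562, and promoters to 1 for HSPC H3K27me3 and 0 for K562. HSPC against mES then gave 0 promoters and 1 span for H3K27me3, and mark against mark 0 and 0 in mES cells. A required gap of 10 points left 0 spans in all 5 knockout or knockdown comparisons, 1 promoter for each HSPC mark, 1 promoter and 3 spans (H2AK119ub) and 3 promoters and 0 spans (H3K27me3) between cell types, 0 spans between marks in mES cells, and 3 promoters and 3 spans in HSPCs. Promoters of 2 kb on each side gave 1 for mES H2AK119ub, 5 for HSPC H2AK119ub and 7 between cell types for H2AK119ub. Joining peaks within 1 kb gave 2 spans for mES H2AK119ub and 0 promoters for mES H3K27me3. All transcript starts gave 2 promoters for mES H3K27me3 and 4 between cell types for H2AK119ub. Lists of equal length gave 0 and 0 in K562 and 4 promoters between cell types for H2AK119ub, where comparing within genotype gave 6. RefSeq records, an alternative chosen after seeing the data, gave 2 promoters for mES H3K27me3.

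Reversed values were the Alyref span in mES H2AK119ub with peaks joined (2.62 points) and, in HSPC H2AK119ub with RefSeq records, the Nsun2 promoter (-2.82), the Nsun2 span (-5.84) and the Ybx1 span (-0.634). Apart from the peak and window definitions themselves, the cause was not tested.

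With the replicate number as a block, a gene was counted when both same-numbered differences had the same sign. This rule is looser than groups that do not overlap. By it 1 promoter was counted for mES H2AK119ub, 6 for HSPC H2AK119ub, and 2 spans in K562. Deviations of same-numbered libraries correlated at -0.135 to 0.0305 over the 5 comparisons, so the numbers do not pair the samples. The lists give no read depth, and 2 libraries a group cannot reach p = 0.05 in the exact permutation test.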
